A study of Drosophila melanogaster with 27 samples.

Results

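The 10 genes described here make up the core of the retinal determination network of Drosophila melanogaster and the transcription factors that act after it as photoreceptors form. They were taken by symbol from a count table of 15348 genes, in which all 10 were found under their FlyBase identifiers and all 10 passed the filter on low counts. The Pax6 homologues ey (eyeless, FBgn0005558) and toy (twin of eyeless, FBgn0019650) lie on chromosome 4. The early eye genes so (sine oculis, FBgn0003460) and Optix (FBgn0025360) lie on chromosome arm 2R, and eya (eyes absent, FBgn0000320) lies on 2L. The proneural gene ato (atonal, FBgn0010433) and the photoreceptor genes gl (glass, FBgn0004618) and ro (rough, FBgn0003267) lie on 3R, sens (senseless, FBgn0002573) on 3L and oc (ocelliless, also called orthodenticle, FBgn0004102) on X. No exon of any of the 10 overlaps an exon of another gene in the BDGP6 annotation.

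In the larval eye disc the Pax6 proteins switch on the homeodomain gene so and the nuclear phosphatase gene eya, whose products bind each other and act together with Optix to commit cells to retina. In and behind the morphogenetic furrow, a front of differentiation that sweeps across the disc, ato selects the founder photoreceptor R8 and sens maintains it. There gl is needed for photoreceptor differentiation, and ro represses ato and sens in the cells around R8. The homeodomain gene oc acts in the ocelli and the dorsal head and, later, in photoreceptors that choose their opsins. Outside the eye, ato and sens serve sense organs of the leg and other appendages.

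RNA was sequenced from hand-dissected imaginal discs of wandering last-instar larvae raised at 25 °C, with discs of 35 to 50 larvae in each of 27 libraries. In control larvae hh-Gal4, a driver of the posterior disc compartment, expressed UAS-GFP and UAS-luc-RNAi, and discs were taken on day 5. In the tumour genotype the same driver and UAS-GFP expressed UAS-scrib-RNAi, the activated UAS-Ras[v12] and UAS-luci-RNAi, and replicate 1 was dissected on day 9 and replicate 2 on day 11. Control and tumour each had 2 libraries of eye-antennal, 2 of leg and 2 of wing discs. The other genotypes kept the scrib hairpin, the activated Ras, the driver and UAS-GFP and carried a hairpin from the TRiP collection in place of the luciferase hairpin (in the tai libraries it lay opposite the chromosome with the scrib and Ras transgenes). The hairpin against CG6272 was HMS00057 (2 eye-antennal and 2 leg libraries, day 8) and that against Stat92E was HMS00035 (1 eye-antennal and 2 leg libraries, day 8). The hairpin against tai was GL00514 (2 eye-antennal libraries and 1 leg library, day 10) and that against kay was HMS00254 (1 eye-antennal library, day 10). The libraries titled sd (2 eye-antennal and 2 leg, days 7 and 8) carry JF02514 against sd in the leg discs, whereas the genotype label of the eye-antennal discs names the kay hairpin, so they are called libraries titled sd throughout. Because all control discs were taken on day 5 and all others later, genotype and day of dissection cannot be told apart. Only part of each disc carries the driver, and in whole discs fewer cells of a type and less RNA per cell cannot be told apart.

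Between 11.7 and 16 M reads per library fell in genes, and 3 reads in a library correspond to 0.19 to 0.26 CPM, the read count scaled to library size with TMM factors. Lines for reads aligned to several places were 15.8% to 22.9% of all lines in control, 54.4% to 76.1% in tumour and 26.1% to 61.5% in the other libraries. The transgene and hairpin targets were read in the eye-antennal discs. The level of Ras85D was 265 and 270 CPM without the transgenes and 657 and 1000 CPM in tumours, while that of scrib was 386 to 430 CPM and 226 to 244 CPM. Irbp18, the listed symbol of CG6272, fell under its hairpin from 51.6 and 82 CPM in tumours to 11.8 and 12 CPM (log2 change -2.48 ± 0.33 SE, adjusted p = 0.000371), whereas sd, tai, Stat92E and kay were not lowered past the threshold in the libraries titled after them. The eye-antennal libraries titled sd are labelled with the kay hairpin, so sd there does not show the effect of the sd hairpin. Levels of kay in those libraries and of sd in leg discs are not given here. The disc labels were read from genes other than these 10. Summed levels of the leg genes Dll, dac, Scr and bab2 were 1670 to 1850 CPM in control leg and 262 to 576 CPM in other control libraries, and those of the wing genes vg, nub and Doc2 were 502 to 617 CPM in control wing and 15.8 to 109 CPM in the others. These sums too were lower in tumours of their own disc. The leg genes summed to 534 to 582 CPM in tumour leg and the wing genes to 162 to 242 CPM in tumour wing discs.

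In control eye-antennal discs all 10 genes were expressed well above the lowest countable level. Divided by exon length, eya (101 ± 5.23 CPM per kb, SD, n = 2) and toy (95.6 ± 3.17) led, followed by gl (64.2 ± 4.78), so (48.6 ± 4.72) and ato (38.2 ± 3.28). Optix (29.9 ± 0.35) and ey (29.6 ± 1.53) came next and did not differ beyond their spread. The lowest were ro (13 ± 1.69), oc (10.9 ± 0.55) and sens (9.76 ± 0.65), of which ro and oc, and oc and sens, like eya and toy, were closer than the sum of their spreads.

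Set against the mean of leg and wing discs of the same genotype, all 10 genes were higher in control eye-antennal discs, where 8.61% of the 9814 genes tested were called higher. The log2 differences ran from 1.19 ± 0.32 for sens (adjusted p = 0.0254) and 1.82 ± 0.24 for so to 7.55 ± 0.46 for gl and 7.94 ± 0.74 for toy. The call for sens was lost without any 1 of 5 of the 6 control libraries (adjusted p = 0.0511 to 0.161). The genes differed in which other disc expressed them. In wing discs eya stood at 43.8 and 48.6 CPM, so at 28.2 and 30.9, Optix at 22.1 and 26.8 and sens at 9.69 and 12.3, while toy was at 0 and 0.295, gl at 0.0835 and 0.369, ro at 0.0835 and 0.295, ey at 0.501 and 0.443, and oc at 0.752 and 0.591 CPM. In leg discs so stood at 50 and 49.9 CPM, eya at 21.4 and 27.9, oc at 21.8 and 25.2, ato at 9.98 and 9.88 and sens at 9.25 and 10.8. The levels of so, eya and sens were thus above 9 CPM in all 3 discs, with Optix in eye-antennal and wing discs above its leg level, and oc in eye-antennal and leg discs above its wing level.

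In eye-antennal discs the retinal genes were low together in the tumour genotype. Of the 10 genes 9 fell, all but oc, where 12.1% of all genes tested were called lower, and the median log2 change of the 10 was -2.23 against 0.03 over all genes. For each of these 9 the tumour libraries lay below both control libraries, and the mean level was 15.1% to 30% of the control mean. How many of all genes separated in this way was not counted.

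**Figure D1:**
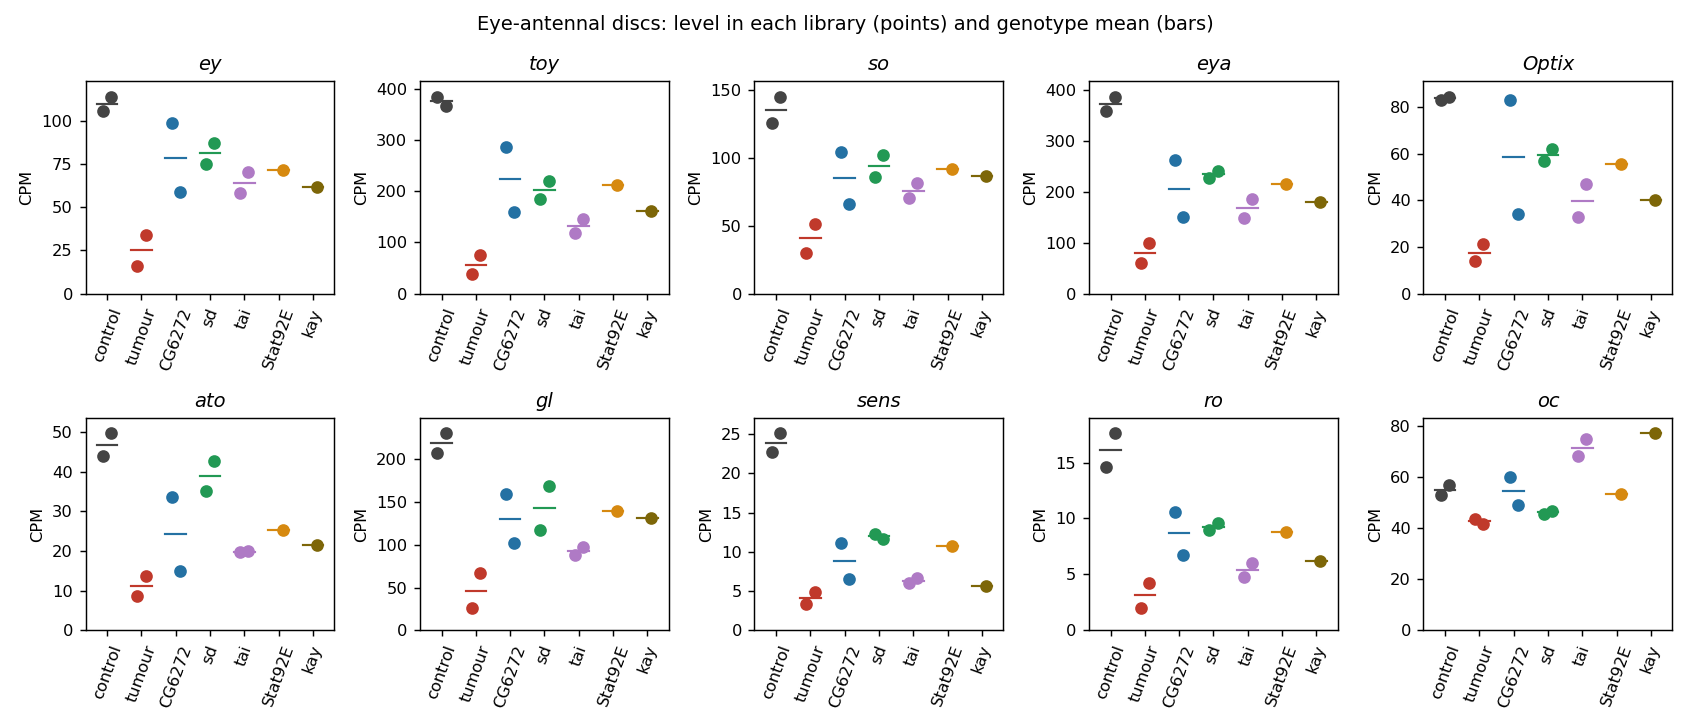
Level of each gene in CPM (y axis, from 0) in the eye-antennal libraries of 7 genotypes (x axis). Points are libraries and bars are genotype means. For every gene both tumour libraries lie below every other library, a placing that was not counted over all genes tested. The day 9 library (left point) is under the day 11 library for 9 genes. The level of oc is 41.5 to 77.1 CPM throughout, with tumours at 43.8 (day 9) and 41.5 CPM (day 11).

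The Pax6 genes head the network. The level of toy was 384 and 366 CPM in control libraries, and 38.4 (day 9) and 75.1 (day 11) CPM in tumours, a log2 change of -2.72 ± 0.67 (adjusted p = 0.00766). The level of ey was 106 and 114 CPM in controls, and 15.9 and 34.2 CPM in tumours (-2.13 ± 0.54, adjusted p = 0.00825). Both tumour libraries were below both controls, and the day 9 library was the lower of the pair for both genes. Without the day 9 library the changes were -1.69 for ey (adjusted p = 0.0808) and -2.32 for toy (adjusted p = 0.0721), and neither passed.

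The so, eya and Optix products act next, so and Optix as related homeodomain proteins and eya as the partner of so and a phosphatase. The gene eya went from 360 and 387 CPM to 59.6 and 99.1 CPM (-2.23 ± 0.35, adjusted p = 0.000312). For so, 126 and 145 CPM in controls stood against 30.2 and 51.1 CPM in tumours (-1.74 ± 0.29, adjusted p = 0.000492). Optix, which drives eye and furrow development, went from 83.1 and 84.5 CPM to 14.1 and 21.1 CPM (-2.25 ± 0.49, adjusted p = 0.00315). None of the 3 overlapped between genotypes, but such separation was not counted over all genes.

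The R8 genes and the later photoreceptor genes fell as well. The proneural gene ato went from 43.9 and 49.6 CPM to 8.65 and 13.8 CPM (-2.06 ± 0.31, adjusted p = 0.00019), and sens, a zinc finger gene of R8, from 22.8 and 25.1 CPM to 3.34 and 4.9 CPM (-2.53 ± 0.41, adjusted p = 0.00035). The zinc finger gene gl went from 207 and 230 CPM to 25.7 and 66.9 CPM (-2.23 ± 0.42, adjusted p = 0.0012). The homeobox gene ro, the least abundant of the 10 there in CPM, went from 14.6 and 17.6 CPM to 1.97 and 4.26 CPM (-2.36 ± 0.52, adjusted p = 0.0033). The gl libraries of the tumour genotype differed most from each other, and its call did not pass when only the 4 compared libraries were fitted (adjusted p = 0.0666).

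The exception was oc. It stood at 53 and 56.9 CPM in control and at 43.8 and 41.5 CPM in tumour eye-antennal libraries, or 77.6% of the control mean (-0.37 ± 0.25, adjusted p = 0.286), and it was the only one of the 10 that was higher in the day 9 than in the day 11 library. The groups did not overlap, but the difference did not pass the test.

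The proportions between the genes moved less than their levels. Taken as a ratio to eya and compared with the control ratio, the other 8 falling genes stayed within -1.03 to 0.51 log2 units in all 12 eye-antennal libraries of the 7 genotypes. The most distant was sens in the kay library (-1.03), and toy was low in the tumour libraries (-0.64 on day 9 and -0.41 on day 11). The ratio of oc to eya was 2.32 log2 units above control in the day 9 tumour library and 1.51 above in the day 11 library. Levels within a library share its depth and scaling, and these ratios are a description without a test.

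Other genes of the eye were read from lists, beside which 1192 of all 9814 genes tested were called lower and 1676 higher. In the list of further eye network genes 9 of 12 fell and 1 rose (median -1.04). Those that fell were dac, a nuclear partner in the network (-2.62 ± 0.38, adjusted p = 0.000156), the pipsqueak-domain genes dan and danr (-1.73 and -1.43), the Pax genes eyg and toe (-1.22 and -1.15), the kinase gene nmo (-0.94), the zinc finger gene tio (-0.64), and the homeodomain genes exd (-0.48) and hth (-0.43). The LIM homeodomain gene Lim1, which patterns the antenna, rose from 44.3 and 46 CPM to 194 and 247 CPM (2.29 ± 0.19, adjusted p = 8.82e-07), and tsh (-0.43 ± 0.17) and hbn (-3.14 ± 1.81) did not pass.

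In the photoreceptor list 9 of 17 genes fell and none rose (median -1.29). They were sev, the receptor tyrosine kinase that induces R7 (-2.40 ± 0.38, adjusted p = 0.000308), lz, a Runx factor of cells that join the cluster late (-2.18), the nuclear receptor gene svp of outer photoreceptors (-2.11), phyl, which acts downstream of Ras in R7 (-1.57), the Bar homeobox genes B-H2 and B-H1 (-1.49 and -1.39), the neuronal RNA-binding gene elav (-1.45), the spalt gene salm (-1.14), and nvy (-0.55). The genes named from the next 2 lists were chosen after their values were seen. In the furrow and proneural list 3 of 13 fell and 2 rose (median -0.13). The EGF ligand protease gene ru fell (-2.71), as did E(spl)mdelta-HLH (-1.35), a Notch target of the eye, and Egfr (-0.49), while hh (1.33) and the secreted Egfr inhibitor gene aos (1.13) rose. In the antennal list 3 of 8 rose (dysf, Lim1 and al at 5.64, 2.29 and 0.60) and 1 fell (hth), with a median of 0.51.

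Markers of other cells moved in the same contrast. Of the 6 neuronal markers 1 fell (elav), and their summed level was 443 to 547 CPM in the controls against 191 to 209 CPM in tumour eye-antennal libraries. Of the 5 glial markers repo (-1.63) and Gli (-0.63) fell and moody (0.79) rose, with sums of 890 to 897 CPM and 663 to 717 CPM. Of the 8 fat body markers 2 fell, with sums of 1360 to 8560 CPM and 208 to 282 CPM. None of the 5 hemocyte, 3 larval muscle and 4 adepithelial myoblast markers tested was called. No marker of these lists was at 0 in control or tumour eye-antennal discs, and their part in the fall of the retinal genes was not tested.

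The same contrast was read in leg and wing discs to see which of these changes were shared. In leg discs 8 of the 10 genes fell, where 18.6% of all genes were called lower, and 1 rose, where 19.7% were called higher. In wing discs 3 fell, where 14.1% were called lower, and 1 rose, where 16.3% were called higher. The falls of eya, Optix and sens were called in all 3 discs, so fell past the threshold in eye-antennal discs, and oc rose in the other 2. Markers of other cells differed as well. In leg discs hemocyte markers summed to 17.3 to 30.8 CPM in the controls against 134 to 159 CPM in tumours (2 of 5 rose), myoblast markers to 108 to 133 against 67 to 70.4 CPM (2 of 4 fell), fat body markers to 568 to 1390 against 225 to 499 CPM and neuronal markers to 89.9 to 257 against 57.6 to 83.5 CPM (4 of 6 fell). In wing discs the same sums were 8.56 to 42.4 against 87.5 to 186 CPM, 127 to 152 against 50.9 to 73.1 CPM, 636 to 5490 against 328 to 411 CPM and 64.2 to 65.4 against 99.4 to 106 CPM. Their part in these changes was not tested.

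**Figure D2:**
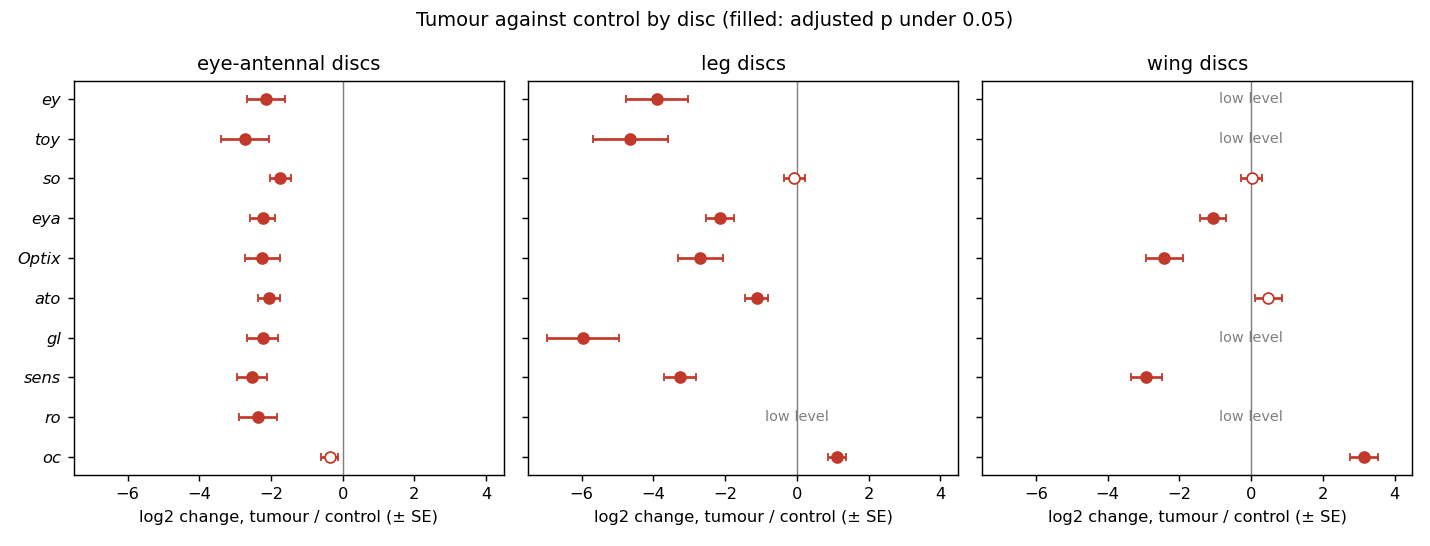
Log2 change of tumour against control (x axis; points, with SE bars) for each gene (y axis) in eye-antennal, leg and wing discs; filled points passed at an adjusted p under 0.05. Genes with a mean under 1.5 CPM in both genotypes of a disc are marked as low level; oc lies right of 0 in leg and wing discs, and so lies at 0 there.

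The homeodomain gene so separated the discs. It stood at 50 and 49.9 CPM in control and 43.6 and 51.7 CPM in tumour leg discs (-0.07 ± 0.29, adjusted p = 0.873), and at 28.2 and 30.9 CPM and 35.5 and 24.5 CPM in wing discs (0.02 ± 0.30, adjusted p = 0.978), with overlapping groups in both. Its partner gene eya went from 21.4 and 27.9 CPM to 5.91 and 5.24 CPM in leg discs (-2.15 ± 0.40) and from 43.8 and 48.6 CPM to 24.9 and 19.3 CPM in wing discs (-1.07 ± 0.36, adjusted p = 0.0356). In wing discs the call for eya was lost without any 1 of its 4 libraries (adjusted p = 0.0756 to 0.168) and with the dissection as a block (adjusted p = 0.0729).

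Optix and sens fell in the 2 other discs by amounts close to those in the eye-antennal discs. Optix went from 22.1 and 26.8 CPM to 4.06 and 5.05 CPM in wing discs (-2.42 ± 0.52, adjusted p = 0.00275) and from 5.36 and 5.62 CPM to 1.06 and 0.655 CPM in leg discs (-2.69 ± 0.64). The level of sens, a marker of sense organ precursors there, went from 9.69 and 12.3 CPM to 2.12 and 0.793 CPM in wing discs (-2.93 ± 0.43, adjusted p = 0.000148) and from 9.25 and 10.8 CPM to 1.06 and 1.02 CPM in leg discs (-3.26 ± 0.44). The joint test of a difference among the 3 discs gave an adjusted p of 0.962 for Optix and 0.783 for sens, which does not show that the changes were alike.

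In leg discs ato, which selects the precursors of stretch receptors, went from 9.98 and 9.88 CPM to 4.24 and 4.88 CPM (-1.12 ± 0.31, adjusted p = 0.0114), a call lost without tumour replicate 1 (adjusted p = 0.0737). Its wing levels were 1 and 1.4 CPM in control and 2.12 and 1.3 CPM in tumour libraries and overlapped. The leg levels of ey, toy and gl in tumours, 0.353 and 0.364, 0.353 and 0.728, and 0.0882 and 0.0728 CPM, rest on 1 to 10 reads a library. Under limma-voom, with the dissection as a block or without it, 3 of the 10 genes passed in leg discs (eya, sens and oc among them; 1 higher and 2 lower), where edgeR called 9.

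The gene oc rose in leg and wing discs. In leg discs it went from 21.8 and 25.2 CPM to 58.9 and 43.4 CPM (1.12 ± 0.25, adjusted p = 0.00282), and in wing discs, where control levels were 0.752 and 0.591 CPM, to 8.56 and 3.61 CPM (3.15 ± 0.38, adjusted p = 2.82e-05). Both tumour libraries lay above both controls in each disc, and both calls held without any 1 library.

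Whether the tumour's effect depended on the disc was tested for each gene. The difference passed for 3 of the 10, where 3.28% of all genes passed: oc (adjusted p = 0.00196), ato (adjusted p = 0.0232) and so (adjusted p = 0.0364). The test for oc held without any 1 library and under each other setting, whereas those for ato and so were lost when single libraries were left out, with an adjusted p of up to 0.0986 for ato and 0.135 for so. Under limma-voom with the dissection as a block ato did not pass (adjusted p = 0.289) and so did (adjusted p = 0.0217). Neither passed under limma-voom with no block (adjusted p = 0.538 for ato and 0.0539 for so). The same was true of edgeR's test with the compared libraries alone (adjusted p = 0.0535 for ato and 0.0647 for so). In tumours 9 of the 10 genes, all but so, were higher in eye-antennal than in the mean of leg and wing discs, where 4.97% of all genes were called higher. The tumour mean of oc was 42.7 CPM in eye-antennal, 51.1 CPM in leg and 6.08 CPM in wing discs. Only the wing mean of oc was thus below its eye-antennal mean. With the compared libraries alone, toy, ato, sens and oc did not pass edgeR's test (adjusted p = 0.0521, 0.0538, 0.183 and 0.142). The call for gl was lost with the dissection as a block (adjusted p = 0.0649), and that for sens without tumour eye-antennal replicate 2 (adjusted p = 0.116) or under limma-voom with no block (adjusted p = 0.0711). The excess of so over those discs went from 1.82 ± 0.24 log2 units in control to 0.11 ± 0.25 in tumour discs, and that of oc from 3.79 ± 0.24 to 1.28 ± 0.21. These differences between genotypes passed for oc (-2.50 ± 0.34, adjusted p = 0.00156), so (-1.71 ± 0.36, adjusted p = 0.024) and ato (-1.74 ± 0.39, adjusted p = 0.0351), where 0.958% of all genes were called lower. The difference for ato was lost with the dissection as a block (adjusted p = 0.164), under limma-voom with no block (adjusted p = 0.34), with the compared libraries alone (adjusted p = 0.0612) and without any 1 of 9 of the 12 libraries (up to 0.154). That for so was lost without any 1 of 4 libraries (adjusted p = 0.0519 to 0.122), and that for oc held in each of these.

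The hairpin genotypes were compared with the tumours. CG6272, Stat92E and sd-titled discs were taken on days 7 and 8 and tai and kay discs on day 10. Tumour discs were taken on days 9 and 11, so hairpin and day of dissection cannot be told apart. Of the targets, each read in the eye-antennal libraries titled after it, only CG6272 was lowered past the threshold. By their label those titled sd carry the kay hairpin. CG6272 encodes a bZIP protein, sd the DNA-binding partner of the Hippo pathway effector Yorkie, tai a coactivator, Stat92E the JAK/STAT factor and kay the Fos subunit of AP-1. In eye-antennal discs 5 of the 10 genes rose with the CG6272 hairpin, where 2.24% of all genes were called higher, and 3 in the libraries titled sd, where 1.2% were. None passed with edgeR's test in the libraries titled tai, Stat92E or kay, where 0.907%, 0.713% and 0.183% of all genes were called in either direction. In these 3 comparisons 7, 9 and 6 of the 10 had an unadjusted p under 0.05, as had 1208, 1177 and 1331 of all 9814 genes. DESeq2 called 0, 2 and 0 of the 10, and 340, 259 and 213 of all genes. All 5 comparisons share the same 2 tumour libraries. Ras85D, at 657 and 1000 CPM in those tumour libraries, stood at 347 and 393 CPM with CG6272, 464 and 550 CPM in the libraries titled sd, 481 and 533 CPM with tai, 442 CPM with Stat92E and 407 CPM with kay, and its part in these results was not tested.

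**Figure D3:**
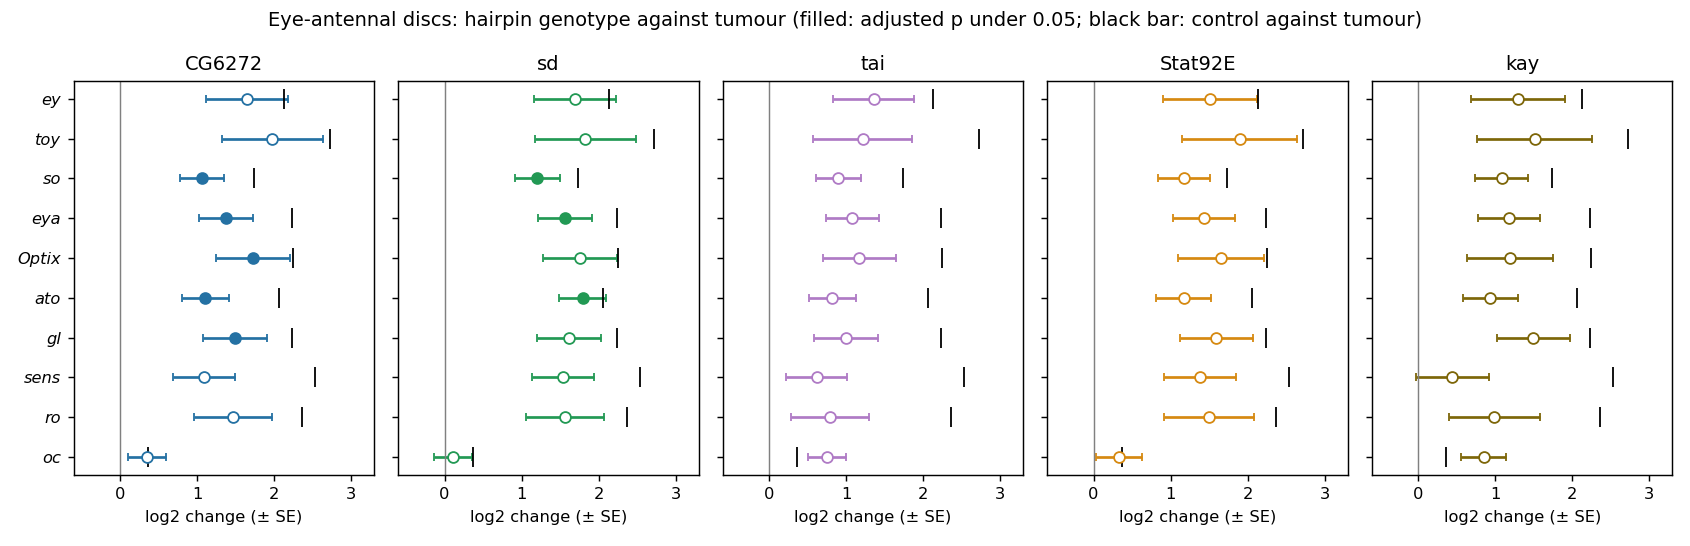
Log2 change of each hairpin genotype against tumour in eye-antennal discs (x axis; points with SE bars) for the 10 genes (y axis); filled points passed at an adjusted p under 0.05. Black bars mark control against the same tumour libraries; most points lie left of the black bar, and CG6272 and sd hold the filled points.

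With the CG6272 hairpin the early eye genes stood between tumour and control. The level of eya was 262 and 150 CPM (1.38 ± 0.35 against tumour, adjusted p = 0.0268), that of Optix 83.1 and 34.2 CPM (1.73 ± 0.48, adjusted p = 0.0431) and that of so 104 and 65.7 CPM (1.06 ± 0.29, adjusted p = 0.0388). Replicate 1 was above replicate 2 for each of the 10 genes, and for Optix it equalled a control library. The photoreceptor gene gl stood at 159 and 102 CPM (1.49 ± 0.41, adjusted p = 0.0431) and ato at 33.5 and 15 CPM (1.11 ± 0.30, adjusted p = 0.0388). The levels of toy (286 and 160 CPM), ey (98.6 and 59 CPM), ro (10.6 and 6.76 CPM) and sens (11.1 and 6.5 CPM) lay above both tumour libraries without passing. Under limma-voom with the dissection as a block, ey (adjusted p = 0.0088), toy (adjusted p = 0.00738) and ro (adjusted p = 0.0265) passed, while so (adjusted p = 0.105) and ato (adjusted p = 0.11) did not. None of the 5 calls held without the day 9 tumour library, when the log2 changes were 0.74 to 1.47, or without CG6272 replicate 1, when they were 0.42 to 1.14.

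In the libraries titled sd, ato had the smallest adjusted p. It stood at 35.2 and 42.6 CPM (1.79 ± 0.31 against tumour, adjusted p = 0.00635), the higher close under the lower control, while eya stood at 228 and 242 CPM (1.57 ± 0.35, adjusted p = 0.0289) and so at 86.1 and 102 CPM (1.21 ± 0.29, adjusted p = 0.0399). For these 3 genes both libraries lay above both tumour libraries and below both controls. The same held for every other gene described here, and such a placing was not counted over all genes tested. The other retinal genes were at 74.9 and 87.5 (ey), 184 and 219 (toy), 57.1 and 62.1 (Optix), 117 and 169 (gl), 12.3 and 11.7 (sens) and 8.93 and 9.57 CPM (ro), and did not pass. With the dissection as a block ey, toy, Optix, gl and ro passed (adjusted p = 0.0145 to 0.038) and so did not (adjusted p = 0.0904). Without the day 9 tumour library none of the 3 calls held, when the log2 changes were 0.878 to 1.496. Nor did any hold without replicate 2 of the libraries titled sd, when the changes were at most 1.646. Without replicate 1 of these libraries the calls for so (1.333) and eya (1.623) were lost. With the compared libraries alone none of the 3 passed edgeR's test (adjusted p = 0.0503 to 0.164), whereas Optix did (adjusted p = 0.0267). If the libraries titled sd were read as kay, as their genotype label says, and joined to the kay library, 4 genes passed against tumour (so, eya, ato and gl).

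The tai, Stat92E and kay libraries lay between tumour and control for the retinal genes too. The level of eya was 148 and 187 CPM in the tai libraries, 215 CPM in the Stat92E library and 180 CPM in the kay library, and that of ato was 19.8 and 19.9, 25.3 and 21.5 CPM. The most reduced was sens, at 6.06 and 6.62 CPM with tai and 5.63 CPM with kay, or 26.5% and 23.5% of the control mean. In contrast oc was higher than in both controls there, at 68.3 and 74.9 CPM with tai and 77.1 CPM with kay, 130% and 140% of the control mean, without passing against control (adjusted p = 0.313 and 0.324).

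Against control eye-antennal discs, 5 genes were lower in the tai libraries (eya, ato, gl, sens and ro), where 7.96% of all genes were called lower. With CG6272 ato and sens were lower, where 8.82% were called, and with kay sens was (-2.09 ± 0.53, adjusted p = 0.0173), where 4.94% were. None passed in the libraries titled sd or Stat92E, where 13.5% and 10.2% of all genes were called in either direction. By edgeR 1 and 2 of the 10 had an unadjusted p under 0.05, as had 2612 and 2347 of all 9814 genes. DESeq2 called 1 and 0 of the 10. The gene sens had the lowest fraction of its control level among the 10 in each of these 5 genotypes. Leaving out single libraries ended calls in each of the comparisons that had any, and the tai count then fell to 1 or 2.

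Wider lists gave the same contrast against tumour in few genes. In the photoreceptor list 5 of 17 genes rose in the libraries titled sd (lz, sev, svp, B-H1 and B-H2), 3 with CG6272 (sev, B-H1 and B-H2), 1 with tai (B-H2) and none with Stat92E or kay. Of all 9814 genes tested, 118, 220, 27, 38 and 7 were called higher in the same order. Called lower were 157 in the libraries titled sd, 473 with CG6272 and 62 with tai. In the eye network list dac rose with CG6272 (2.14 ± 0.37), in the libraries titled sd (2.32 ± 0.38) and with Stat92E (2.26 ± 0.42), and Lim1 fell with CG6272 (-0.99), sd (-0.85) and tai (-0.91). These lists share the tumour libraries with the comparisons above. In the CG6272, sd and tai libraries the summed neuronal markers were 182 to 288, 194 to 361 and 181 to 338 CPM and the fat body markers 1690 to 3340, 334 to 11900 and 191 to 433 CPM. Larval muscle markers summed to 708 to 1050, at most 203 and 157 to 2040 CPM there and hemocyte markers to 133 to 381, 45.5 to 89.1 and 94.3 to 239 CPM, against 130 to 161 and 95.6 to 112 CPM in tumours. Among these markers 1 of 5 for hemocytes rose with CG6272 and none of 3 for muscle passed in any of the 3 genotypes, and their part in these results was not tested.

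In leg discs oc set the hairpins apart. Against 58.9 and 43.4 CPM in tumours it stood at 9.91 and 10.7 CPM in the libraries titled sd (-2.31 ± 0.26, adjusted p = 5.59e-05, where 8.99% of all genes were called lower) and at 17.8 and 23.9 CPM with CG6272 (-1.29 ± 0.25, adjusted p = 0.00844, where 3.22% were). Both sd libraries also lay below both control leg libraries, at 21.8 and 25.2 CPM. With Stat92E oc stood at 30.4 and 34.1 CPM and with tai at 56.9 CPM, and neither passed. The sd call held without any 1 library. The CG6272 call was lost without tumour replicate 1 (-1.06, adjusted p = 0.13) or CG6272 replicate 1 (adjusted p = 0.0959).

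**Figure D4:**
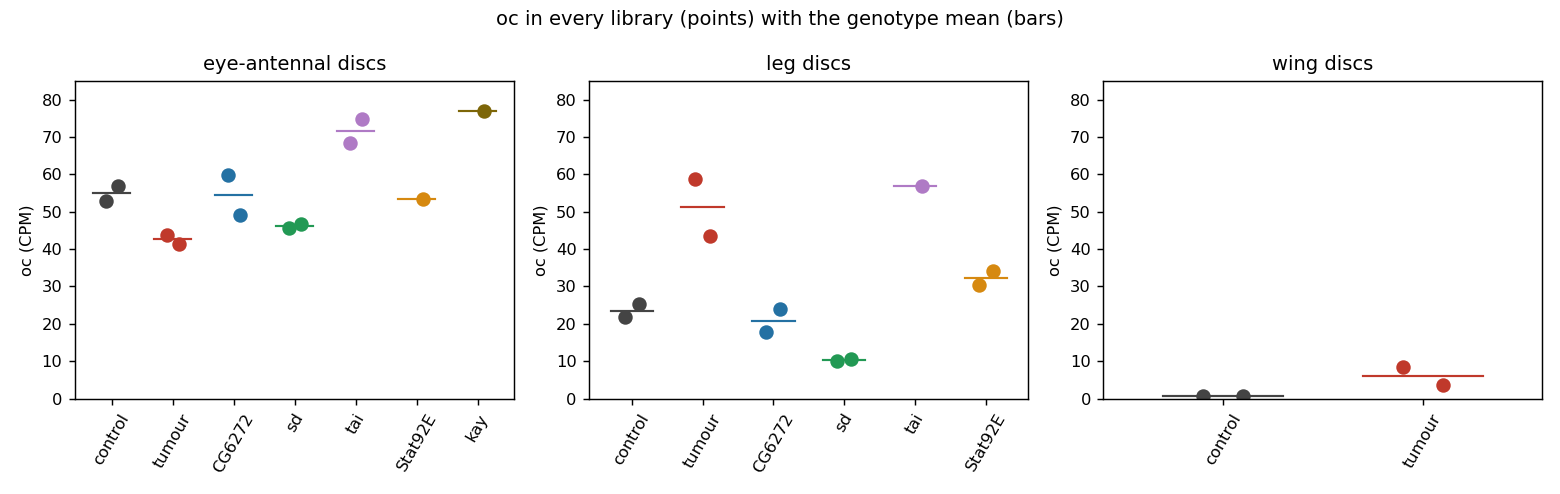
Level of oc in CPM (y axis, from 0) in every library of eye-antennal, leg and wing discs by genotype (x axis). Points are libraries and bars are genotype means; in leg discs the sd libraries are lowest and the tumour and tai libraries highest, while the eye-antennal libraries of sd and tumour are close.

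The effect on oc was compared between discs, a comparison added after the data had been seen. In the libraries titled sd the change against tumour was lower in leg than in eye-antennal discs by 2.42 ± 0.36 log2 units (-2.42, adjusted p = 0.00373), the only 1 of the 10 genes to pass, where 0.866% of all genes were called lower. Since the genotype labels name sd in the leg and kay in the eye-antennal discs, disc and hairpin cannot be told apart in it. For CG6272 the difference was -1.65 ± 0.35 and did not pass (adjusted p = 0.0882), and 1 of the 10 was called under limma-voom with the dissection as a block. By edgeR 0% of all genes were called for CG6272, tai or Stat92E in this comparison. There 4, 2 and 5 of the 10 had an unadjusted p under 0.05, as had 747, 225 and 508 of all 9814 genes. DESeq2 called 1, 0 and 1 of the 10, and 150, 11 and 59 of all genes.

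The retinal genes themselves were low in leg discs, and their small levels varied by library. In control leg discs ey, toy, eya, Optix, gl and ro stood at 2.54% (gl) to 6.6% (eya) of their control eye-antennal means, whereas so, ato, sens and oc stood at 21.2% to 42.8%. In tumour leg discs those 6 genes were at 0.0369% (gl) to 1.49% (eya). In leg discs with the Stat92E hairpin they were at 3.44% (toy) to 6.77% (ro).

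Against tumour leg discs 8 of the 10 genes were higher with Stat92E, all but so and oc, where 5.5% of all genes were called higher. Replicate 2 was above replicate 1 for ey (7.32 against 1.4 CPM), toy (21.2 against 4.57), eya (30 against 14.1), Optix (8.24 against 2.04), gl (14 against 4.99) and ro (1.48 against 0.702). Without replicate 2, ey, toy, eya and Optix did not pass (adjusted p = 0.0696 to 0.251), and without tumour replicate 1, ey, toy, eya, Optix and ro did not (adjusted p = 0.0511 to 0.12). The sense organ genes did not follow that order, with ato at 17.2 and 18 CPM and sens at 12.9 and 6.33 CPM, and ato (1.95 ± 0.32, adjusted p = 0.00172), sens (3.20 ± 0.44, adjusted p = 0.00063) and gl (adjusted p = 0.000748) passed also when any 1 library was left out. Fitted folds of gl and ro rest on 1 read in each tumour library and depend on the prior count. Under limma-voom 3 genes passed, 2 higher (ato and sens) and 1 lower. The call for gl was lost there (adjusted p = 0.32 with the dissection as a block and 0.197 without it).

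**Figure D5:**
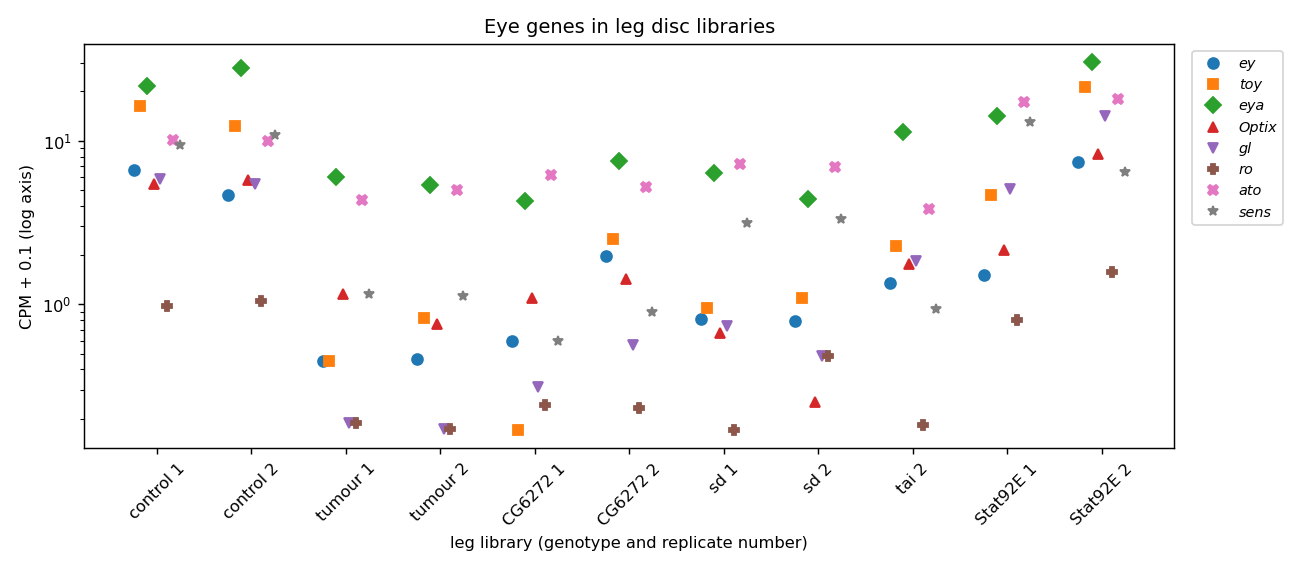
Level of 8 genes (symbols) in each leg library (x axis), as CPM with 0.1 added on a log axis (y axis). The 6 retinal genes are low together in the tumour, CG6272 and sd libraries and higher together in control and Stat92E replicate 2, while ato varies less.

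Genes of the photoreceptor list showed like differences among leg libraries. The mean level of sev was 306 ± 30.8 CPM in control eye-antennal discs, 14.1 ± 2.3 CPM in control, 6.32 ± 2.07 CPM in tumour and 24.6 ± 12 CPM in Stat92E leg discs (SD, n = 2 each). The means of lz were 79.9 ± 6.41, 4.08 ± 0.0653, 2.16 ± 0.69 and 8.23 ± 4.19 CPM in the same order. Whether the reads of retinal genes in leg libraries came from leg cells or from eye disc tissue in the dissections was not tested.

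Of the remaining leg comparisons, sens rose in the libraries titled sd, from 1.06 and 1.02 CPM to 3.06 and 3.22 CPM (1.59 ± 0.44, adjusted p = 0.0232, where 6.16% of all genes were called higher), a call lost without any 1 of the 4 libraries. None of the 10 genes was called by edgeR with tai, where 0.326% of all genes were called. Of the 10, 1 had an unadjusted p under 0.05, as had 872 of all 9814 genes. DESeq2 called 1 of the 10 and 114 of all genes.

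Across the 15 groups of genotype and disc, each gene's nearest neighbours in mean log2(CPM + 1) were found among the genes tested. The Pearson correlations below share depth, scaling and the large step between eye-antennal and other discs, so they are given as descriptions. The genes ey, toy and gl were among each other's nearest (0.993 to 0.996), and eya and Optix were nearest to each other (0.988). The next for eya were Sobp (0.97) and CG3009 (0.966), and for Optix CG15765 (0.971) and Rab32 (0.968). For ro they were CG5653 (0.991), ru (0.99) and Hmx (0.989), and for ato lz (0.954), cpo (0.95) and superdeath (0.944). For sens MYPT-75D (0.95), CG14440 (0.937) and dmpd (0.932) stood closest, and for so Ipp (0.936), CG31038 (0.93) and CG15760 (0.929). The pattern of oc, high in eye-antennal and tumour leg discs, had the weakest neighbours, dpr10 (0.871), CG11155 (0.868) and GABA-B-R1 (0.862), and its correlation with sens was 0.07.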

How the data were processed

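Reads per gene were deposited by the authors as raw counts for each of 27 libraries. Per the submitters' processing notes they used TopHat2, HTSeq and the dm3 build, with versions not given in the sources used here. Strandedness was likewise not given. The 5 summary lines of each file were left out of library sizes and tests, and gave the share of lines aligned to several places, 15.8% to 76.1% of a library. Symbols came from a BDGP6 annotation (14639 of 15348 identifiers matched), which also gave exon lengths.

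Genes with at least 1 CPM in 2 libraries (9814) were scaled by TMM and tested with edgeR 4.0.16 in R 4.3.3 (quasi-likelihood F test, robust, 1 mean for each of 15 groups of genotype and disc, 12 residual degrees of freedom). Groups with 1 library, kay and Stat92E eye-antennal and tai leg, add none of these and are assumed to vary like the others. P-values were adjusted by Benjamini-Hochberg over all tested genes, with a threshold of 0.05. SE is the absolute log2 change divided by the root of F. Joint tests covered all 3 discs. Alternatives were DESeq2 1.42.0, limma 3.58.1 (voom), other filters and size factors, a replicate block, the compared libraries alone and each library left out. The labels call replicates independent dissections but do not say that libraries share no larvae across discs, so p-values measure the spread between these libraries.

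The labels tie replicate numbers to dissections within a genotype, and deviations of same-numbered libraries correlated at 0.274 and 0.366 between control eye-antennal and leg or wing discs, -0.0575 between control leg and wing discs, and 0.194 to 0.546 in tumours. Between genotypes a number is only a name. The script was tested on simulated counts. The 10 genes, the lists and the tests were chosen with earlier results of these data known. All 10 genes, those called from the eye network and photoreceptor lists, and for each of the 10 genes its 3 best correlated genes were to be named; other genes named were chosen after their values were seen.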

Additional observations from a re-analysis of the deposited data

Results flagged for a closer look

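The effect of the tumour genotype differed among discs for oc (adjusted p = 0.00196), ato (adjusted p = 0.0232) and so (adjusted p = 0.0364), by edgeR's joint test. The excess in eye-antennal over leg and wing discs differed between tumour and control for the same 3 genes, with adjusted p = 0.00156 for oc, 0.024 for so and 0.0351 for ato. These tests use the same 12 libraries.

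The change of oc against tumour differed between leg and eye-antennal discs in the libraries titled sd (adjusted p = 0.00373), where the labelled hairpin differs between discs too.

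Lines for reads aligned to several places, which no test used, were on average 67.1% of all lines in tumour libraries and 17.6% in control libraries. Their part in the results was not tested.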

How the results depend on the processing

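Of 942 log2 changes of the 10 genes recomputed under other settings, 843 kept their direction and side of the threshold, 61 no longer passed, 35 newly passed and 3 reversed. Of 480 with a library left out, 393 kept both, 85 no longer passed, 2 newly passed and none reversed. Fits of fewer libraries estimate the spread from fewer values, and the cause of these changes was not tested.

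Each count below is of the 10 genes. Tumour against control in eye-antennal discs gave 9, and 7 to 9 without single libraries. In leg discs it gave 9, against 3 under limma-voom with the dissection as replicate block, 3 without the block and 8 to 9 without single libraries, and in wing discs 4, against 3 with any 1 library left out. Disc dependence gave 3, against 6 with DESeq2, 1 with limma-voom without block, 1 with the compared libraries alone and 1 to 3 without single libraries. Eye-antennal against leg and wing discs gave 10 in control and 9 to 10 without single libraries, 9 in tumours, 5 alone and 8 to 9 without single libraries, and 3 for their difference, 1 to 3 without single libraries.

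Against tumour in eye-antennal discs, CG6272 gave 5, against 3 with no count filter, 0 alone, 0 against the Stat92E and kay libraries in place of tumours and 0 to 4 without single libraries. In that alternative so (-0.066), gl (-0.052) and oc (-0.236) reversed. The libraries titled sd gave 3, against 7 with DESeq2, 7 with the block, 9 with limma-voom without it, 1 alone and 0 to 4 without single libraries. The tai libraries gave 0, against 1 with the block and 2 with limma-voom without it. Stat92E gave 0, against 2 with DESeq2 and 0 to 1 without single libraries, and kay 0, against 4 when joined with the libraries titled sd.

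Against control in eye-antennal discs, CG6272 gave 2, against 4 with limma-voom without block, 1 alone and 0 to 3 without single libraries. The libraries titled sd gave 0, against 1 with DESeq2, 2 with the block, 2 without, 6 alone and 1 when joined with kay. The tai libraries gave 5, against 8 without block, 9 alone and 1 to 2 without single libraries. Stat92E gave 0, against 1 without block and 7 alone, and kay gave 1, against 2 with DESeq2, 3 with the block, 3 without, 9 alone and 0 to 1 without single libraries.

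Against tumour in leg discs, CG6272 gave 1, against 0 alone and 0 to 1 without single libraries. The libraries titled sd gave 2, against 1 with the block, 1 without, 1 alone and 1 without any single library. The tai library gave 0, against 1 with DESeq2, and Stat92E gave 8, against 3 with the block, 3 without, 3 alone and 3 to 8 without single libraries. For leg minus eye-antennal discs, CG6272 gave 0, against 1 with DESeq2 and 1 with the block, the libraries titled sd 1, against 3 with DESeq2, and Stat92E 0, against 1 with DESeq2. Levels under 0.26 CPM rest on 3 reads or fewer, which limits ey, toy, gl and ro outside eye-antennal discs.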

Other observations

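The bHLH-PAS gene dysf (dysfusion), chosen from the antennal list after its values were seen, stood at 6.55 and 6.89 CPM in control and 329 and 342 CPM in tumour eye-antennal libraries. It was at 1.74 and 2.66 CPM with CG6272, 4.27 and 4.39 CPM in the libraries titled sd, 3.61 and 4.26 CPM with tai, 5.81 CPM with Stat92E and 4.66 CPM with kay, so all 5 hairpin genotypes lay below both controls. Log2 changes against tumour were -7.25 to -5.85, with edgeR's adjusted p of at most 4.06e-05. In leg discs it stood at 46.2 and 60 CPM in control, 138 and 258 CPM in tumour and 3.11 to 20.4 CPM in the hairpin libraries, and in wing discs at 17.7 and 24.4 CPM in control and 184 and 267 CPM in tumour libraries.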
